A study of Sus scrofa with 21 samples.

Results

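Adenosine is a purine nucleoside that sperm and the fluids around them carry, and its breakdown and sensing are tied to sperm motility. The gene set described here holds 9 genes for adenosine turnover and signalling, namely the deaminases ADA, ADA2 and ADAL, the kinase ADK, the ecto-5′-nucleotidase NT5E and the receptors ADORA1, ADORA2A, ADORA2B and ADORA3. They were taken by gene symbol, and 8 of the 9 matched an Ensembl pig gene among the 25880 counted genes. ADAL matched none and has no value below. The members were compared over all libraries, both breeds and the groups of boars that differ in sperm hyperactivity, the vigorous, asymmetric swimming that sperm acquire before fertilization.

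Testis RNA was measured in 21 boars kept for artificial insemination, 13 Landrace and 8 Duroc, with tissue taken after slaughter and 1 library per boar. Contrast (i) compared 4 Landrace boars with high hyperactivity on the day of ejaculation, day 0 (L5 to L8), with 4 with low hyperactivity (L1 to L4). Contrast (iii) compared 3 Landrace boars whose hyperactivity changed much over 96 h of liquid storage at 18 °C (L7, L13 and L15) with 4 in which it changed little (L2, L9, L10 and L12). Contrast (ii) compared 5 Duroc boars labelled high (D1 to D5) with 3 labelled low (D6, D7 and D9). The labels give no treatment, no introduced allele and no ages of single boars. L2 and L7 serve in both Landrace contrasts, so these are not independent of each other. The table of boars in the study gives the opposite group for 7 of the 8 Duroc names (only D5 keeps its group). By name D3 is low there, but its 125576407 counts on genes exceed the reads of every low Duroc boar in that table. The names in that table and in the labels thus cannot all stand for the same boars. A direction in contrast (ii) holds for the deposited labels only. The study's text gives directions for its Landrace contrasts that run opposite to those these labels give. Its table of mean counts, however, gives ADA and ADA2 as lower in the high groups of both contrasts, the way these labels do. Its table of boars also gives L1 to L4 as low and L5 to L8 as high. Why the text differs could not be settled here, and high and low in contrasts (i) and (iii) mean the deposited labels.

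Libraries held 47988011 to 97059970 counts on genes in Landrace and 41358671 to 125576407 in Duroc. The TMM factor, which scales a library for its RNA composition, was 1.03 to 1.18 in the 4 low boars of contrast (i) and 0.822 to 0.986 in the 4 high boars, without overlap. Markers of germ cells and of somatic cells were both present. All 11 spermatid genes had a median over 1 CPM (counts scaled to the TMM-normalized library size) in both breeds. Of 9 Sertoli cell genes, 7 had a median over 1 CPM over all boars, with a median sum of 1113 CPM, and only AMH had no count in any library. The 5 matched Leydig cell genes had a median sum of 1713 CPM. In contrast (i), the summed level of 9 matched spermatocyte genes was 1763 to 2679 CPM in the high boars and 1216 to 1663 CPM in the low boars, and 1 of 8 tested passed as higher. The sum of 6 peritubular myoid genes was 21.02 to 65.1 CPM in the high boars and 52.8 to 117 CPM in the low boars, and 3 of 5 tested passed as lower. The summed spermatid genes were 12169 to 16225 CPM in the high boars and 9625 to 14310 CPM in the low boars, while 4 of the 11 passed as lower. The part of these shifts in the results below was not tested. Since whole tissue was sequenced, fewer cells of a type and less RNA per cell cannot be told apart.

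Extracellular ATP is stripped of its phosphates to AMP, and NT5E, anchored on the cell surface, turns AMP into adenosine. Adenosine then acts on 4 receptors coupled to G proteins. ADORA1 and ADORA3 couple mainly to the inhibitory G proteins that lower cyclic AMP (cAMP), and ADORA2A and ADORA2B to those that raise it. Inside cells ADK phosphorylates adenosine back to AMP and ADA deaminates it to inosine, while ADA2 is a secreted deaminase. In sperm, cAMP feeds protein kinase A, which takes part in capacitation and motility.

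The 8 genes lie at different places in the pig genome, given here from the RefSeq annotation of Sscrofa11.1. ADA (ENSSSCG00000021255) is on chromosome 17 at 47044492 to 47072232, and ADA2 (ENSSSCG00000035218) on chromosome 5 at 69526413 to 69554640. The ADK gene (ENSSSCG00000010315) spans 484515 bp of chromosome 14, from 76836072 to 77320586, and NT5E (ENSSSCG00000004291) lies on chromosome 1 at 54400786 to 54450743. Of the receptors, ADORA1 (ENSSSCG00000021059) is on chromosome 9 at 113835279 to 113875899, ADORA2A (ENSSSCG00000010054) on chromosome 14 at 49467186 to 49485845, ADORA2B (ENSSSCG00000035051) on chromosome 12 at 59431834 to 59449701, and ADORA3 (ENSSSCG00000006788) on chromosome 4 at 108854300 to 108857769. ADORA1 overlaps MYBPH, ADORA2B overlaps ZSWIM7 and ADORA3 overlaps TMIGD3 in this annotation, and ADA2 and NT5E overlap uncharacterized genes. Reads were counted by strand, but overlapping genes on the same strand may still share reads.

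All 8 members were counted in every library. Over the 21 boars, NT5E ranged from 49.2 to 126.6 CPM with a median of 69.8. ADORA1 ranged from 31.0 to 77.3 CPM (median 49.3) and ADORA3 from 14.4 to 30.2 CPM (median 21.02). ADK was at 4.20 to 11.9 CPM (median 6.64), ADA2 at 1.15 to 5.89 CPM (median 2.79) and ADA at 0.342 to 4.17 CPM (median 1.4995). ADORA2B was at 0.566 to 2.04 CPM (median 1.13), and ADORA2A was near the limit of detection with 4 to 40 counts per library, or 0.0501 to 0.469 CPM. CPM is not scaled for transcript length, and no exon lengths were used here, so these levels are compared between boars and not between genes.

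ADA varied most between boars. The SD of log2 CPM over the 21 boars was 0.84 for ADA, above that of 95.1% of the 13126 genes expressed in the series, and 0.63 for ADA2, above that of 85.6%. For ADORA2A it was 0.69, with the counting error of a low count included. ADORA2B had an SD of 0.50 and ADK of 0.39, against a median of 0.35 over all genes. NT5E, ADORA1 and ADORA3 varied less than that median, with SDs of 0.26, 0.29 and 0.28. Within breeds, the SD was larger in Landrace than in Duroc for ADA (0.93 and 0.62), ADA2 (0.60 and 0.46), ADK (0.46 and 0.23) and NT5E (0.32 and 0.12), and smaller for ADORA1 (0.24 and 0.37). The Landrace boars were picked at extremes of 2 traits, and this difference between breeds was not tested.

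**Figure D1:**
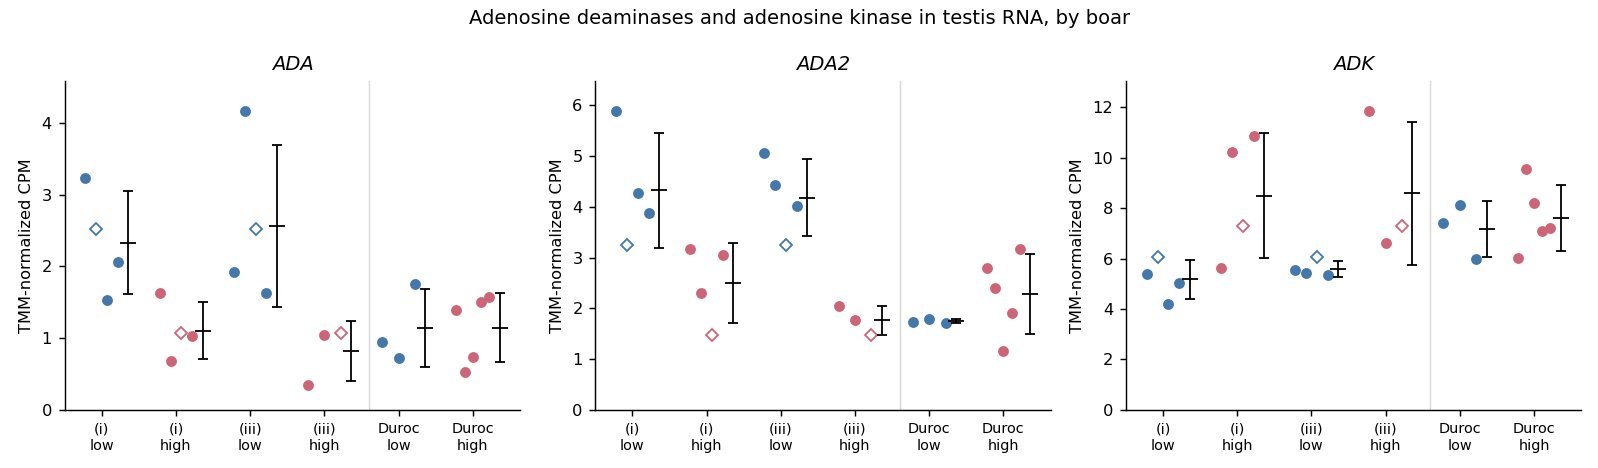
ADA, ADA2 and ADK in TMM-normalized CPM (y axis, from 0) for each boar, by contrast and group (x axis). Points are boars, blue for low and red for high, open diamonds are L2 and L7, which serve in both Landrace contrasts, and bars give the mean ± SD. In contrast (iii) the high boars lie below the low boars for ADA and ADA2 and above them for ADK.

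In contrast (i), the question was which members differ between boars with high and low hyperactivity on day 0. ADA was lower in the high boars by a log2 fold change of -1.14 ± 0.34 (SE), and ADORA1 by -0.47 ± 0.15. These were 2 of the 7 members that reached 1 CPM in 4 or more libraries, and they passed edgeR's quasi-likelihood test at an adjusted p under 0.05, both downward. Over all 12979 genes tested, 20.7% passed, 15.8% as lower and 4.82% as higher in the high boars, so the members passed about as often as genes did in general. ADA2 and ADK fell just outside the threshold.

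For ADA, the intracellular deaminase, the low boars L1 to L4 had 3.23, 2.52, 1.52 and 2.06 CPM, and the high boars L5 to L8 had 1.63, 0.683, 1.07 and 1.03 CPM. The groups overlapped through L5, which lay above L3. The means were 1.104 ± 0.393 CPM in the high boars (SD, n = 4) and 2.33 ± 0.72 CPM in the low boars (SD, n = 4), a 2.21-fold difference with an adjusted p of 0.0383.

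ADA2, the secreted deaminase, was at 5.89, 3.25, 4.28 and 3.88 CPM in L1 to L4 and at 3.16, 2.30, 1.47 and 3.06 CPM in L5 to L8. The groups did not overlap, as was the case for 31.4% of all genes tested, but the lowest low boar, L2, lay close to the highest high boar, L5. Its log2 fold change was -0.87 ± 0.29 (SE), with an adjusted p of 0.0548.

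ADK, which returns adenosine to AMP, went the other way, at 5.39, 6.06, 4.20 and 5.04 CPM in L1 to L4 and at 5.62, 10.2, 7.27 and 10.9 CPM in L5 to L8. L6 and L8 stood well above the low boars, while L5 lay among them. The log2 fold change of ADK was 0.64 ± 0.24 (SE), and the adjusted p of 0.0686 did not pass.

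The receptor gene ADORA1 had 60.1, 54.3, 63.1 and 44.7 CPM in the low boars and 42.3, 39.3, 48.1 and 38.4 CPM in the high boars. L4 and L7 crossed over, and the other 6 boars kept apart. Its means were 42.0 ± 4.4 CPM in the high boars (SD, n = 4) and 55.5 ± 8.1 CPM in the low boars (SD, n = 4), with an adjusted p of 0.0465. When genes with at least 10 counts in at least 4 libraries were tested instead, ADORA1 had an adjusted p of 0.0624 and no longer passed.

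The receptor gene ADORA2A was too low for the filter at 1 CPM and was tested only in that larger set of 15916 genes, of which 18.4% passed, 13.6% as lower. It had 26, 20, 40 and 14 counts in L1 to L4 and 8, 5, 8 and 4 counts in L5 to L8. In CPM these were 0.348 ± 0.126 in the low boars and 0.0868 ± 0.0372 in the high boars (SD, n = 4 each), and the groups did not overlap, as for 28.5% of the genes in that set. The log2 fold change of ADORA2A was -2.03 ± 0.50 (SE), with an adjusted p of 0.0250. It entered the test only because all 4 low boars reached 10 counts and no high boar did, so a difference between the groups was built into its inclusion. With every gene kept that had at least 1 count in at least 1 library, the value was -2.01 with an adjusted p of 0.0304.

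The other members did not pass in contrast (i). NT5E had a log2 fold change of 0.09 ± 0.17 (SE, adjusted p = 0.699), with 49.2 to 74.8 CPM in the low boars and 59.9 to 85.1 CPM in the high boars. For ADORA3 the value was 0.08 ± 0.16 (adjusted p = 0.721), with 20.9 to 25.2 and 21.6 to 30.2 CPM. ADORA2B was at -0.32 ± 0.37 (adjusted p = 0.525), with 0.647 to 1.66 and 0.677 to 1.20 CPM.

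The calls of contrast (i) rested on single boars. Without L3, a low boar, no member passed and only 1 of 12728 genes did, and without L6, a high boar, no member passed and only 1 of 12898 genes did. No member passed either without L1, L2 or L8, where 966 of 12786, 1836 of 12751 and 1228 of 12943 genes did. Only ADORA1 passed without L4 or without L7, where 1481 of 12770 and 2766 of 12886 genes did. ADA, ADA2 and ADK passed without L5, where 3764 of 12934 genes did. The log2 fold change of ADK was then 0.82 (adjusted p = 0.0240).

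**Figure D2:**
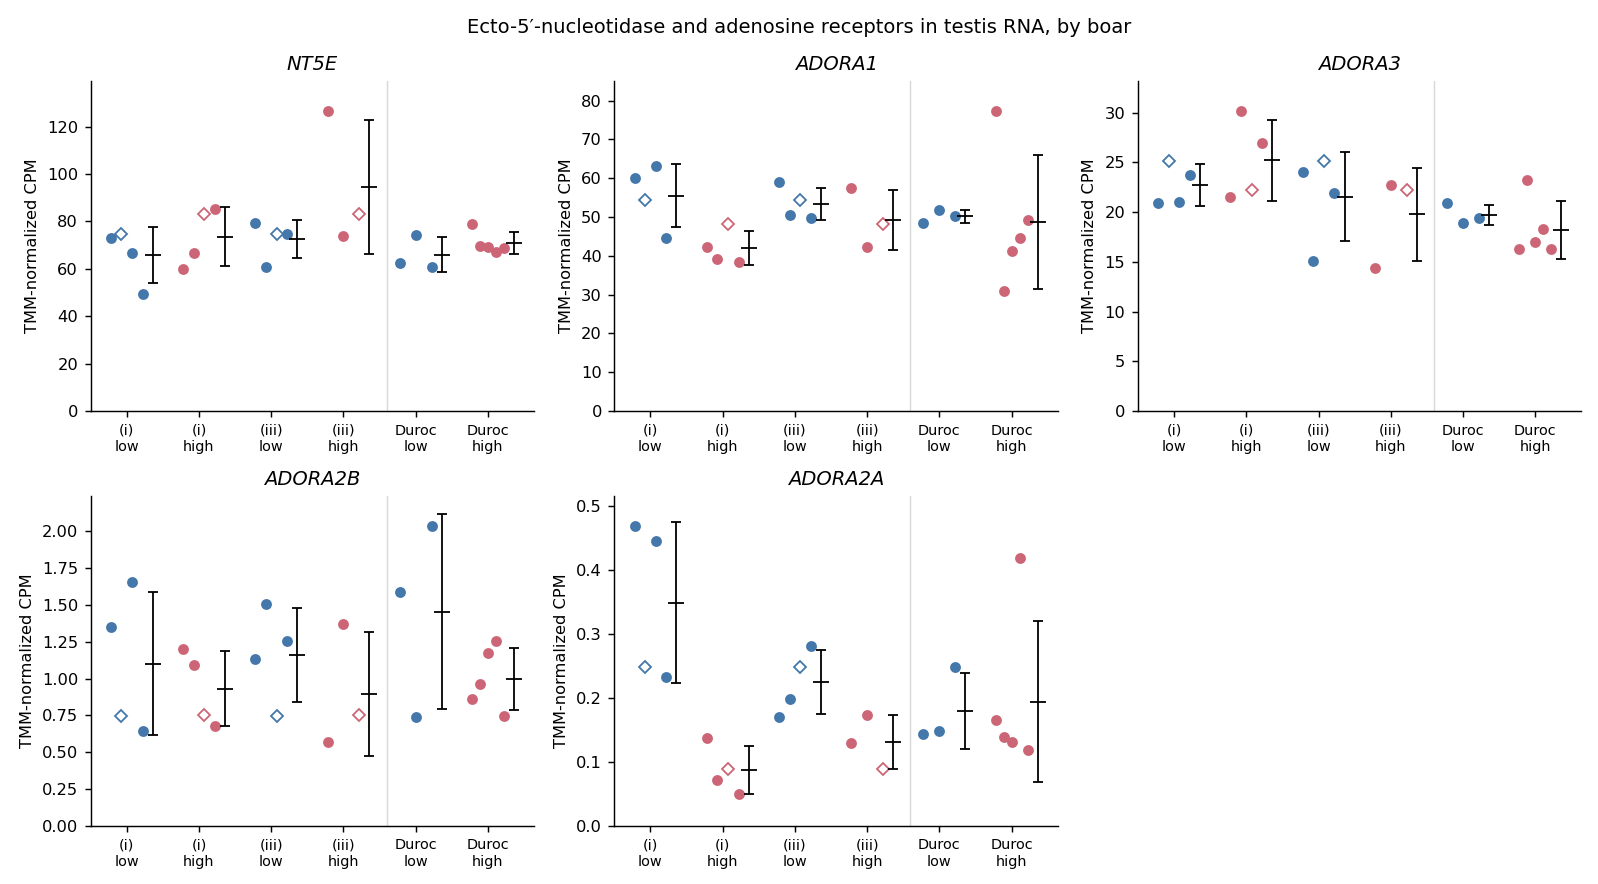
NT5E and the 4 adenosine receptors in TMM-normalized CPM (y axes, each from 0 on its own scale) for each boar, by contrast and group. Symbols are as for the enzymes, with the mean ± SD beside each group. ADORA2A is lower in all 4 high boars of contrast (i) than in the low boars, at 0.0501 to 0.137 against 0.232 to 0.469 CPM.

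In contrast (iii), the question was whether members differ between boars whose sperm changed much or little in hyperactivity over storage. None of the 7 members tested passed, and 0% of the 12824 genes did (0 genes, by edgeR's quasi-likelihood test), although 2540 genes, or 19.8%, had an unadjusted p under 0.05. The 3 adenosine-consuming enzymes ADA, ADA2 and ADK had groups that did not overlap, as did 16.4% of all genes tested.

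ADA2 was at 3.25, 4.01, 5.05 and 4.43 CPM in L2, L9, L10 and L12, and at 1.47, 2.04 and 1.77 CPM in L7, L13 and L15. Every high boar lay below every low boar. The means were 1.76 ± 0.28 CPM in the high boars (SD, n = 3) and 4.18 ± 0.76 CPM in the low boars (SD, n = 4), a log2 fold change of -1.26 ± 0.26 (SE). By unadjusted p (0.000712, edgeR) ADA2 stood at place 16 of 12824, yet its adjusted p was 0.240. It passed under the likelihood ratio test that the study used (adjusted p = 0.0191, 64 genes called) and under DESeq2 (adjusted p = 0.0042, 116 genes called).

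ADA had 2.52, 1.63, 1.92 and 4.17 CPM in the low boars L2, L9, L10 and L12, and 1.07, 0.342 and 1.04 CPM in the high boars L7, L13 and L15. L12 was the highest and L13 the lowest of all 21 boars for this gene. Its log2 fold change was -1.66 ± 0.47 (SE), with an adjusted p of 0.240. ADK was at 6.06, 5.36, 5.55 and 5.42 CPM in the same low boars and at 7.27, 11.9 and 6.64 CPM in the high boars. The low boars of ADK lay close together, and L13 set the high mean apart. The log2 fold change was 0.61 ± 0.24 (SE, adjusted p = 0.240), and 0.31 without L13.

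NT5E had 74.8, 74.8, 79.4 and 60.8 CPM in L2, L9, L10 and L12, and 82.9, 126.6 and 73.7 CPM in L7, L13 and L15. Its log2 fold change of 0.37 ± 0.19 (SE, adjusted p = 0.293) came down to 0.11 without L13. The receptors had values of -0.13 ± 0.15 for ADORA1, -0.14 ± 0.23 for ADORA3 and -0.39 ± 0.38 for ADORA2B, none of which passed. ADORA2A, tested among 15596 genes of which 0% passed, was at -0.80 ± 0.46 (adjusted p = 0.346), with 9 to 20 counts in the low boars and 8 to 11 in the high boars. Beside these values, the summed spermatid markers were 7081 to 12841 CPM in the high and 11309 to 15402 CPM in the low boars of contrast (iii), and all 7 tested Sertoli and all 5 tested Leydig cell genes had positive values, of which none passed. Their part in the values of the members was not tested.

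**Figure D3:**
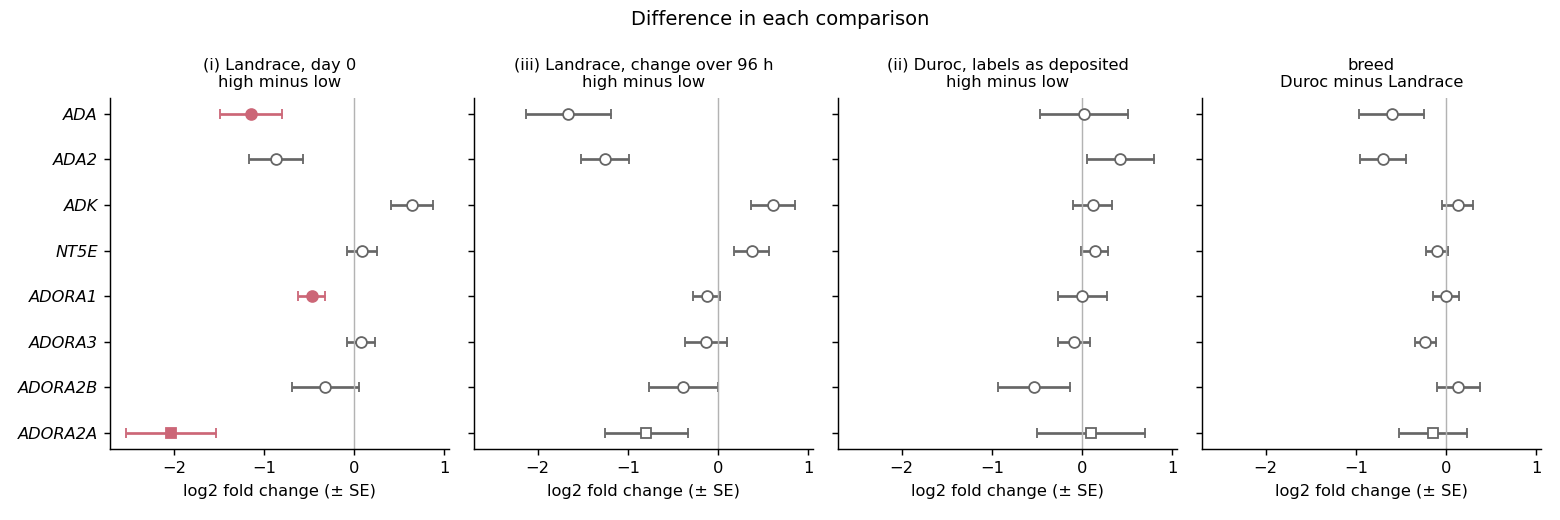
log2 fold change of each member (x axis, ± SE) in the 4 comparisons, circles for the test of genes with at least 1 CPM and squares for ADORA2A in the set with at least 10 counts. Filled red symbols had an adjusted p under 0.05, which holds for ADA, ADORA1 and ADORA2A in contrast (i) only. ADORA2A entered that test only through the low boars.

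In Duroc, contrast (ii), no member differed between the boars labelled high and low. None of the 13043 genes tested passed (0%), 158 genes or 1.21% had an unadjusted p under 0.05, and the groups of no member were free of overlap, against 1.3% of all genes. DESeq2 and the likelihood ratio test called 0 genes as well. ADA2 had 2.79, 2.39, 1.15, 1.92 and 3.18 CPM in D1 to D5 and 1.73, 1.78 and 1.71 CPM in D6, D7 and D9. The 3 low boars were almost alike, and the 5 high boars lay on both sides of them. The log2 fold change of ADA2 was 0.42 ± 0.38 (SE), with an adjusted p of 0.999985. ADA was at 1.40, 0.529, 0.732, 1.4995 and 1.57 CPM in D1 to D5 and at 0.938, 0.720 and 1.75 CPM in D6, D7 and D9, a log2 fold change of 0.02 ± 0.49. ADK ranged from 6.02 to 9.54 CPM in the high and from 5.96 to 8.12 CPM in the low boars.

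The receptors of the Duroc boars likewise overlapped. ADORA1 was at 77.3, 31.0, 41.3, 44.7 and 49.3 CPM in D1 to D5 and at 48.5, 51.8 and 50.3 CPM in D6, D7 and D9, with D1 the highest and D2 the lowest of all 21 boars. ADORA2B had the largest difference, -0.53 ± 0.40 (SE), with 0.743 to 1.25 CPM in the high and 0.737 to 2.04 CPM in the low boars. Values for ADORA3 were 16.3 to 23.2 and 18.9 to 20.9 CPM, and for NT5E 67.2 to 79.1 and 60.6 to 74.3 CPM. ADORA2A was tested among 15757 genes of which 0% passed, with 7 to 22 counts in the high and 7 to 13 in the low boars. Without D5 the labels and the study's table, matched by name, split the boars alike but name the groups oppositely. ADA2 was then 0.28 (log2) higher in the boars labelled high. The value would be the same amount lower only if those names stood for the same boars, which for D3 they cannot.

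Whether high and low boars differed in the same way in both breeds was tested as an interaction over the 8 boars of contrast (i) and the 8 Duroc boars. None of the 12920 genes tested passed (0%), and 15.1% had an unadjusted p under 0.05. The likelihood ratio test called 3 genes, none of them a member. The difference between the breeds in log2 fold change, Duroc minus Landrace, was 1.26 ± 0.47 (SE) for ADA2 with an adjusted p of 0.329, and 1.15 ± 0.61 for ADA with an adjusted p of 0.337. It was -0.56 ± 0.30 for ADK and, among 15744 genes of which 0% passed, 2.11 ± 0.73 for ADORA2A (adjusted p = 0.326). The breeds were thus not shown to differ in how high and low boars compare for any member.

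Between breeds, no member passed, while 2.88% of the 13126 genes tested did. ADA2 had the smallest p of the members. It ranged from 1.15 to 3.18 CPM in the 8 Duroc boars, with a median of 1.85, and from 1.47 to 5.89 CPM in the 13 Landrace boars, with a median of 3.25. The mean was 2.08 ± 0.66 CPM in Duroc (SD, n = 8) and 3.43 ± 1.32 CPM in Landrace (SD, n = 13). The log2 fold change, Duroc minus Landrace, was -0.70 ± 0.25 (SE), and the adjusted p of 0.170 did not pass. ADA2 was alone among the tested members in having an unadjusted p under 0.05, against 12.3% of all genes.

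The Duroc minus Landrace values of the other members were smaller. ADA was at -0.60 ± 0.36 (SE, adjusted p = 0.601), with 0.529 to 1.75 CPM in Duroc (median 1.17) and 0.342 to 4.17 CPM in Landrace (median 1.63). ADORA3 was at -0.23 ± 0.12 (adjusted p = 0.436), with means of 18.8 ± 2.4 CPM in Duroc (SD, n = 8) and 22.3 ± 4.2 CPM in Landrace (SD, n = 13). ADK was at 0.13 ± 0.17, NT5E at -0.10 ± 0.12, ADORA2B at 0.14 ± 0.24 and ADORA1 at 0.00250 ± 0.142. ADORA2A, in the set of 15983 genes of which 3.11% passed, was at -0.14 ± 0.38 (adjusted p = 0.993). No member had breeds without overlap, against 0.282% of all genes.

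ADK and ADA act on the same substrate, and their counts can be set against each other within a library, which needs no scaling between libraries. This ratio was chosen after the values were seen and was not tested. ADK counts over ADA counts were 1.67, 2.41, 2.76 and 2.45 in L1 to L4 and 3.44, 14.98, 6.77 and 10.6 in L5 to L8. In contrast (iii) they were 2.41, 3.29, 2.88 and 1.3 in L2, L9, L10 and L12, and 6.77, 34.7 and 6.37 in L7, L13 and L15. All 7 Landrace boars with low labels had a ratio of at most 3.29 and all 6 with high labels one of at least 3.44. Among single genes, groups did not overlap for 31.4% in contrast (i) and 16.4% in contrast (iii). How often ratios of other gene pairs keep the groups apart was not tested. In Duroc the ratio was 4.31, 18.0, 11.2, 4.72 and 4.60 in D1 to D5 and 7.91, 11.3 and 3.40 in D6, D7 and D9. Those Duroc groups overlapped, and all 8 Duroc boars were above the highest Landrace boar of the low groups.

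**Figure D4:**
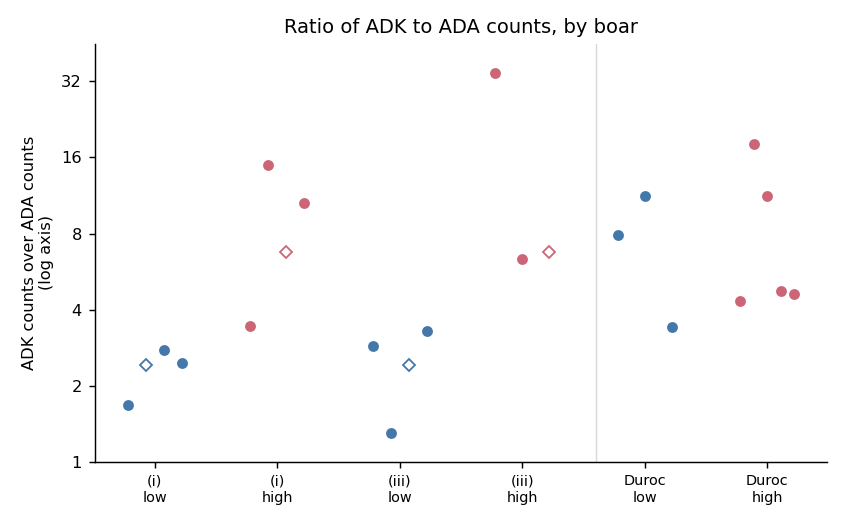
Ratio of ADK counts to ADA counts (y axis, log scale) for each boar by contrast and group. Points are boars, blue for low and red for high, and open diamonds mark L2 and L7. The low Landrace boars lie between 1.3 and 3.29 and the high Landrace boars between 3.44 and 34.7, while the Duroc groups overlap. The ratio was chosen after the values were seen.

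ADA and ADA2 varied together among the Landrace boars. Over the 13 boars, Pearson's r of log2 CPM was 0.73 (permutation p = 0.0047, adjusted over the 2 breeds 0.0094) and Spearman's rho was 0.75 (permutation p = 0.0043, adjusted 0.0085), both two-sided. Without L12 and L13, the boars farthest from the median of ADA, r was 0.74. Among the 8 Duroc boars, r was 0.32 (exact permutation p = 0.432, adjusted 0.432) and rho was 0.095 (exact permutation p = 0.840, adjusted 0.840). Without D2 and D7 the Duroc r rose to 0.67, so its value turned on those boars. The Landrace boars were picked at high and low ends of hyperactivity, both genes come from the same libraries, and no group holds enough boars for a value of its own.

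Genes with the most similar pattern to each member were found by Pearson's r of log2 CPM over the 21 boars among 11045 other named genes, as a description. For ADA these were C16orf86 (0.92), MTX1 (0.92) and SIL1 (0.92), with r of 0.91 to 0.93 in the 13 Landrace boars and 0.88 to 0.96 in the 8 Duroc boars. ADA2 had weaker companions, DCP1A (0.77), C7orf57 (0.74) and SLC25A25 (0.72), whose r in Duroc was only 0.27 to 0.60. ADK was followed by PPP1CB (0.95), ARPC5 (0.95) and CD164 (0.94), each at 0.93 or more in either breed. NT5E had ENPP5 (0.94), GPC4 (0.92) and MPZL1 (0.91).

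Of the receptors, ADORA1 was most like SMOX (0.88), SYT2 (0.87) and SEPTIN9 (0.87). ADORA2B, a low gene, was most like IZUMO1 (0.80), TSPYL5 (0.80) and MTMR14 (0.80). ADORA3 had TRHR (0.77), MBD5 (0.75) and DTL (0.75). Both genes of a pair come from the same libraries, so these values include the depth and RNA composition of each.

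Around the members, genes of 6 lists were followed through the same tests. With the filter at 1 CPM none passed in contrasts (ii) or (iii), between breeds or in the interaction. In contrast (i) 11 genes passed as lower and 2 as higher in the high boars. In the order below, the lists had 5, 3, 6, 9, 5 and 21 genes tested. Over all genes, 15.8% passed as lower and 4.82% as higher. In the larger set with at least 10 counts, 11 passed as lower and 3 as higher in contrast (i), but not all the same genes. There the lists had 6, 5, 7, 13, 6 and 25 genes tested, and 18.4% of all genes passed, 13.6% as lower. In that set 1 gene also passed between breeds, the adenylate kinase gene AK5, named after its values were seen. It was at 1.36 ± 0.52 CPM in Duroc (SD, n = 8) and 0.235 ± 0.131 CPM in Landrace (SD, n = 13), with an adjusted p of 5.02e-05. It had 41 to 148 counts in the 8 Duroc boars, enough to meet the filter without any Landrace boar, and 1 to 37 in the Landrace boars. No extracellular enzyme for ATP, ADP or AMP passed among 5 tested, with a median log2 fold change of 0.17 against 0.03 over all genes. ENTPD1, which cleaves ATP and ADP outside cells, was at 83.1 CPM in the high and 70.3 CPM in the low boars. No nucleoside transporter passed among 3 tested at 1 CPM, and 1 of 5 tested at 10 counts passed as lower. It was SLC29A4, a transporter of monoamines and adenosine that was named after its values were seen, at 0.441 ± 0.176 CPM in the high and 1.71 ± 1.26 CPM in the low boars (SD, n = 4 each, adjusted p = 0.0293). The equilibrative transporter genes SLC29A1 and SLC29A2 were at -0.82 ± 0.37 and -0.83 ± 0.32 (SE), with adjusted p of 0.115 and 0.0759.

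Of 6 tested 5′-nucleotidases, which act inside cells on nucleotides such as AMP and IMP, 1 passed as lower. It was NT5C, at 0.759 ± 0.240 CPM in the high and 1.42 ± 0.113 CPM in the low boars (SD, n = 4 each), with an adjusted p of 0.0464. NT5C is close to the filter at 1 CPM. Among 7 tested at 10 counts, 1 passed as lower, and it was not NT5C but NT5C1A, at 0.332 ± 0.128 and 1.06 ± 0.27 CPM (adjusted p = 0.0225), named after its values were seen. Of 9 salvage and deamination genes, 1 passed, the AMP deaminase AMPD2, with a log2 fold change of -1.21 ± 0.35 (SE) and an adjusted p of 0.0361. Its means were 1.07 ± 0.31 CPM in the high boars and 2.35 ± 0.94 CPM in the low boars. At 10 counts, where 13 were tested, AMPD2 passed as lower and HPRT1, the enzyme that salvages hypoxanthine and guanine, as higher, at 77.2 ± 21.3 CPM in the high and 50.9 ± 6.3 CPM in the low boars (adjusted p = 0.0496, against 0.0540 with the filter at 1 CPM). HPRT1 was likewise named after its values were seen. Among 5 adenylate kinases, which exchange phosphate between AMP, ADP and ATP, AK1 and AK8 passed as lower. AK1 was at -0.99 ± 0.32 (SE, adjusted p = 0.0454) and AK8 at -0.72 ± 0.20 (adjusted p = 0.0328).

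Of 21 tested genes for cAMP signalling, 7 passed as lower, 2 as higher and 12 did not pass, with a median log2 fold change of 0.19 against 0.03 over all genes. Over all genes, 15.8% passed as lower and 4.82% as higher. Of 25 tested at 10 counts, 6 passed as lower and 2 as higher, and the median was then -0.27 against 0.0086 over all genes, so the sign of the median turned with the filter. The lower genes with the smallest p were the phosphodiesterase PDE4A, which breaks down cAMP, and the adenylyl cyclases ADCY1 and ADCY6, which make it. PDE4A fell by 0.88 on the log2 scale (SE 0.18, adjusted p = 0.0208), from 154.6 ± 8.5 CPM in the low boars to 88.2 ± 22.9 CPM in the high boars. ADCY1 was at -1.41 ± 0.29 (adjusted p = 0.0208) and ADCY6 at -1.58 ± 0.36 (adjusted p = 0.0210), with means of 2.37 and 1.21 CPM in the high boars against 5.97 and 3.44 CPM in the low boars. The 2 higher genes, named after their values were seen, were GNAI3, an inhibitory G protein subunit through which ADORA1 and ADORA3 can signal, and PRKACB, a catalytic subunit of protein kinase A. GNAI3 was at 0.47 ± 0.13 (adjusted p = 0.0327) and PRKACB at 0.62 ± 0.17 (adjusted p = 0.0311). The soluble adenylyl cyclase ADCY10, which answers to bicarbonate in sperm, was at 0.38 ± 0.15 with an adjusted p of 0.0861.

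**Figure D5:**
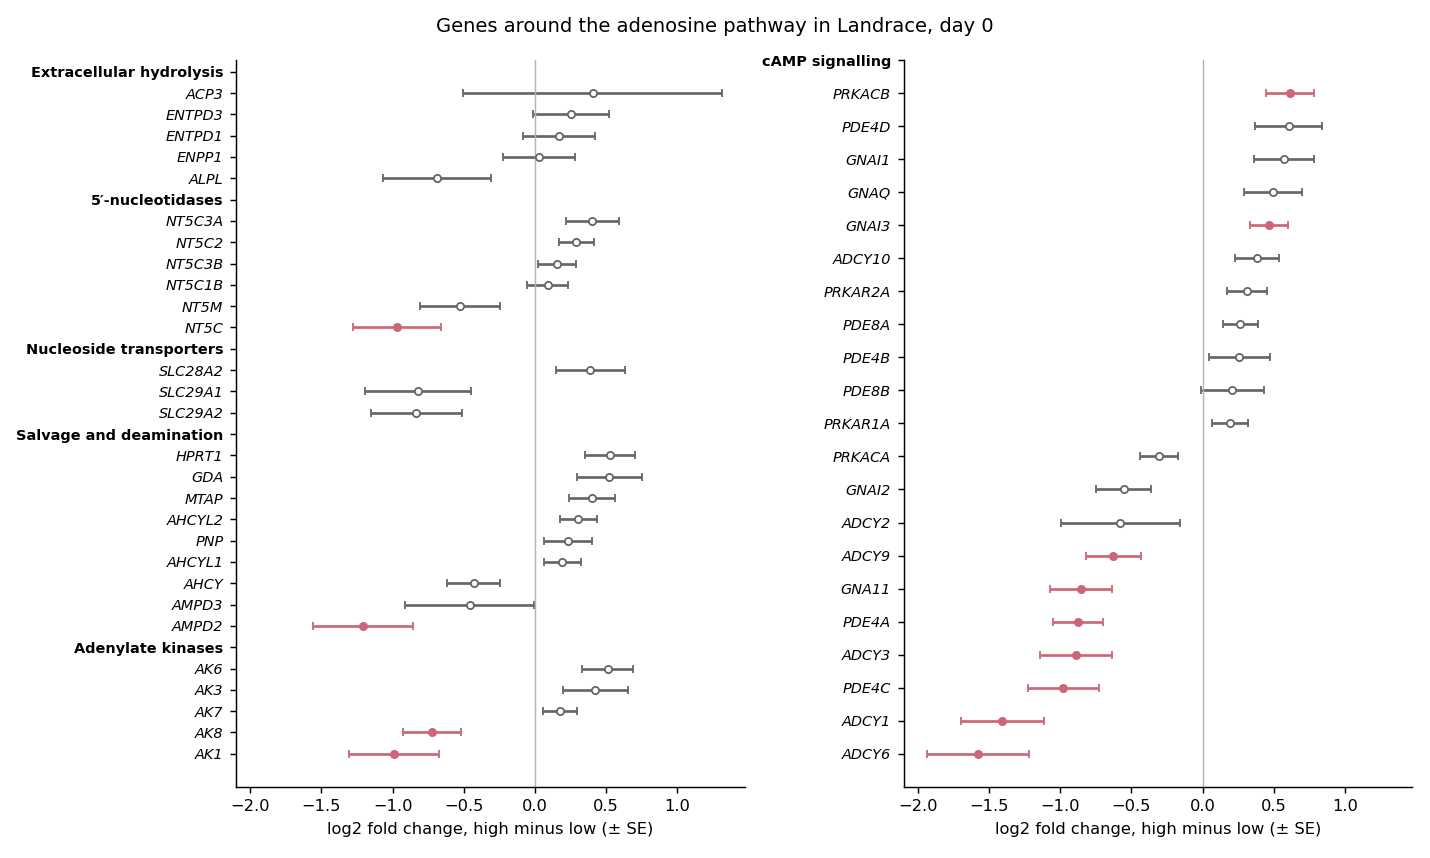
log2 fold change (x axis, high minus low, ± SE) of the tested genes of 6 lists around adenosine in contrast (i), with filled red points for an adjusted p under 0.05. In the cAMP list 7 genes lie to the left and 2 to the right among those that passed, and no extracellular enzyme or transporter passed at the filter of 1 CPM that is plotted.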

How the data were processed

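The authors made stranded mRNA libraries from testis RNA of 21 boars, 1 per boar, and read 100 bp from single ends. They trimmed reads with Trimmomatic 0.36, aligned them to Sscrofa11.1 with STAR, and counted them by strand with HTSeq on Ensembl release 90. The deposited values are raw counts per gene, without normalization. Rows that name no gene, 29.4 to 39.0% of each file, were left out. Total counts were 41358671 to 125576407.

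The members and lists were chosen with earlier results of these data known. Names came from an identifier table that named 14857 of 25880 genes. In R 4.3.3, edgeR 4.0.16 gave TMM-normalized CPM and its quasi-likelihood test with Benjamini-Hochberg adjustment over all genes tested, for genes that reached 1 CPM, or 10 counts for low members, in 4 libraries (8 between breeds and in the interaction). SE came from the fold change and its statistic. The fits were tested on simulated data. No pair of the 34 within groups was identical, and each differed by more than sampling noise. All members were named. Of other lists, genes with an adjusted p under 0.05 were named, at most the 3 with the smallest p, besides genes set beside a member, and the 3 genes most like each member. Alternatives were a likelihood ratio test, DESeq2 1.42.0, other normalizations, filters and fits, and leaving out boars. No sequences were used here.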

Additional observations from a re-analysis of the deposited data

Results flagged for a closer look

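In 40 groups of 4 to 10 boars (8 members in 5 groups), the highest or lowest boar was compared with the spread of the others by Dixon's criterion. It stood apart in 5, where chance alone gives about 2. The groups of all 8 Duroc boars and of the 5 Duroc boars labelled high share boars. D1 was high for NT5E, at 79.1 CPM against 67.2 to 69.8 CPM in the other boars labelled high, and for ADORA1, at 77.3 CPM against 31.0 to 51.8 CPM in the other 7 Duroc boars. D1 had the lowest depth of all libraries, 41358671 counts, and a TMM factor of 1.18. D4 was high for ADORA2A, at 0.418 CPM or 22 counts, against 0.118 to 0.164 CPM in the other boars labelled high and 0.118 to 0.248 CPM in the other 7 Duroc boars. D2 was high for ADORA3, at 23.2 CPM against 16.3 to 18.3 CPM in the other boars labelled high, with a TMM factor of 0.851. No Landrace group tested met the criterion for any member. The 3 high boars of contrast (iii) and the 13 Landrace boars together fell outside the sizes tested. L13 belongs to no group that was tested. What sets D1, D2 and D4 apart was not tested.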

How the results depend on the processing

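In contrast (i), where 2 members passed, 1 passed with RLE normalization (ADA), 4 with DESeq2 (ADA, ADA2, ADK and ADORA1), and 0 without L2 and L7. Of all 12979 genes, 2682 passed by the quasi-likelihood test, 2866 with RLE and 3922 with DESeq2. Without L2 and L7, 2026 of 13003 genes passed. Leaving out each boar in turn gave 0 to 3 members. In contrast (iii), 1 member (ADA2) passed with the likelihood ratio test and 1 with DESeq2, against 0 by the quasi-likelihood test. Counts of members in contrast (ii), between breeds and in the interaction were 0 under each alternative run. ADORA2A in contrast (i) had log2 fold changes of -2.32 to -1.85 without each high boar (adjusted p 0.0175 to 0.0605); without a low boar it missed the filter and gave no value. With all 13 Landrace boars in 1 fit, ADA had an adjusted p of 0.0561 and ADA2 of 0.0378. In all, 268 of 291 recomputed log2 fold changes kept their direction and side of the threshold, and 370 of 412 did when 1 boar was left out. Apart from leaving out boars, a sign turned in 10 of the 291, to values of at most 0.030 in size. With upper quartile normalization NT5E was -0.0018 and ADORA3 -0.0098 in contrast (i). ADA in contrast (ii) was -0.0081 with every gene of at least 1 count. Between breeds ADORA1 was -0.013 with at least 10 counts, -0.0080 with RLE, -0.0081 with DESeq2 and -0.019 with at least 1 count, and NT5E was 0.0091 with 8 Landrace boars. In the interaction NT5E was -0.030 with at least 10 counts and -0.0071 with RLE. Leaving out 1 boar, the ranges that crossed 0 were NT5E -0.073 to 0.19 and ADORA3 -0.016 to 0.17 in contrast (i), ADORA3 -0.26 to 0.056 in contrast (iii), ADORA1 -0.29 to 0.13 and ADA -0.24 to 0.21 in contrast (ii), ADORA1 -0.13 to 0.079 and ADORA2B -0.041 to 0.22 between breeds, and ADORA2B -0.50 to 0.14 and NT5E -0.063 to 0.20 in the interaction. The cause was not tested. The correlation of ADA with ADA2 on CPM was 0.72 in Landrace and 0.35 in Duroc. No paired analysis was possible because the numbers of boars only name different animals. Depth limits ADORA2A, ADORA2B and ADA, which had under 50 counts in some libraries.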

Other observations

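L13, a Landrace boar with a high change over storage, held the extreme of all 21 boars in 5 of the 8 members. It had the lowest ADA (0.342 CPM, 29 counts), ADORA2B (0.566 CPM) and ADORA3 (14.4 CPM) and the highest ADK (11.9 CPM) and NT5E (126.6 CPM). It also had the highest share of mitochondrially encoded reads, 4.02%. L12, of the low group of contrast (iii), had the highest ADA (4.17 CPM) and the second lowest ADORA3 (15.1 CPM). Among the macrophage markers of contrast (i), which bear on ADA2 as a deaminase that such cells secrete, the summed level of 10 genes was 87.6 to 138 CPM in the high boars and 70.1 to 105 CPM in the low boars, most of it MRC1, at 52.4 to 207 CPM over all boars. CSF1R and CD14 were near 0, with medians of 0.114 and 0.0572 CPM. C1QC was 1 of 4 tested to pass, at 2.55 ± 0.90 CPM in the high boars and 5.37 ± 0.65 CPM in the low boars (SD, n = 4 each, adjusted p = 0.0270 by edgeR). The part of these cells in ADA2 was not tested.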
